A study of Homo sapiens with 6 samples.

Results

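The MORC family genes MORC2, MORC3 and MORC4 and 6 genes of the silencing machinery that MORC2 works with were followed in SW480 cells, an established line from a human colorectal adenocarcinoma. The 9 genes were chosen by name and were taken from 56303 genes in the count table. All 9 were found, and all 9 passed the filter on low counts. The study compared 3 libraries of cells with a nonsilencing hairpin (shCtrl, genotype given as WT) and 3 libraries of cells with a hairpin against MORC2 (shMORC2, genotype given as MORC2 knockdown). Both hairpins came in lentivirus, and the study describes the puromycin-selected cells as stable and clonal. No source names more than 1 line per hairpin, so an effect of the knockdown cannot be told apart from a difference between lines. Polyadenylated RNA was sequenced, and levels are read counts per gene, given here as CPM, counts scaled to a common library size and composition.

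MORC2 is a nuclear ATPase of the GHKL type that compacts chromatin. It is brought to its sites by the HUSH complex, which consists of TASOR (listed under its old symbol FAM208A), the chromodomain protein MPP8 (MPHOSPH8) and periphilin (PPHLN1). HUSH also brings in SETDB1, which trimethylates lysine 9 of histone H3, together with ATF7IP, the partner that keeps SETDB1 stable in the nucleus. TRIM28 is the corepressor through which KRAB zinc finger proteins reach the same methyltransferase. This machinery is known for silencing young LINE-1 elements, retrogenes and integrated proviruses, and for silencing zinc finger gene clusters.

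In the count table (GRCh38), the MORC genes lie as MORC2 at chr22:30925130-30968298 (minus strand), MORC3 at chr21:36320189-36386148 (plus strand) and MORC4 at chrX:106813871-107000244 (minus strand). The HUSH genes lie as FAM208A at chr3:56620133-56683237 (minus strand), MPHOSPH8 at chr13:19633681-19673459 (plus strand) and PPHLN1 at chr12:42238447-42459715 (plus strand). The methyltransferase and corepressor genes lie as SETDB1 at chr1:150926263-150964744 (plus strand), ATF7IP at chr12:14365632-14502935 (plus strand) and TRIM28 at chr19:58544091-58550722 (plus strand).

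Total counts ran from 42092664 to 43434425 per library. The epithelial markers EPCAM, KRT8 and KRT18 were abundant, while LGALS4, with 2 to 18 counts per library, and CDH17 and GPA33, with 12 to 60, were close to absent. The summed level of the 9 epithelial markers ran from 18232 to 23594 CPM in shCtrl and from 17581 to 23880 CPM in shMORC2, nearly all of it from KRT8 and KRT18. Of the 8 epithelial markers tested, KRT20, a keratin of differentiated intestinal cells, was called higher in shMORC2 (9.49 ± 1.31 to 15.9 ± 4.08 CPM, log2 fold change 0.75, edgeR adjusted p 0.00305), and so was the intestinal transcription factor gene CDX2 (15.2 ± 1.68 to 21.2 ± 4.504 CPM, log2 fold change 0.47, edgeR adjusted p 0.0158). Of all genes tested, 19.9% were called higher. PTPRC, CD3E and CD79A (leukocytes), COL3A1 and DCN (fibroblasts) and CDH5 and KDR (endothelium) had at most 10 counts in any library. The other fibroblast markers were detected, COL1A1 with 355 to 458 counts per library, LUM with 330 to 514 and PDGFRB with 63 to 102. So were the other endothelial markers, PECAM1 with 576 to 860 counts and VWF with 86 to 153. CD68, a lysosomal protein of the leukocyte list, was higher in shMORC2, from 34.1 ± 4.60 to 82.4 ± 28.6 CPM (SD, n = 3 each). The summed level of the 4 leukocyte markers, which CD68 set, ran from 29.7 to 38.8 CPM in shCtrl and from 49.8 to 102 CPM in shMORC2. The sum ran from 19.8 to 20.8 and from 22.6 to 25.0 CPM for the 5 fibroblast markers, and from 15.7 to 19.6 and from 20.6 to 22.3 CPM for the 4 endothelial markers, of which VWF was called higher (log2 fold change 0.54, edgeR adjusted p 0.0238). Whether these markers had a part in the values below was not tested. In bulk RNA, fewer cells with a transcript and less of it per cell cannot be told apart.

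The target of the hairpin was examined first. MORC2 stood at 46.1, 46.4 and 48.8 CPM in shCtrl replicates 1, 2 and 3 and at 35.03, 29.3 and 27.2 CPM in shMORC2 replicates 1, 2 and 3. The groups did not overlap, and shMORC2 replicate 1 kept the most. The log2 fold change of shMORC2 over shCtrl was -0.63 (SE 0.10, 95% interval -0.83 to -0.42, edgeR adjusted p 0.000216), and 64.7% of the control level remained. The knockdown of the transcript was therefore partial. MORC2-AS1, an antisense RNA gene, shares 1616 exonic bases with MORC2, or 25.8% of its exonic length, and had 39 to 59 counts per library in shCtrl and 24 to 38 in shMORC2, against at least 1157 for MORC2 itself. The sources used here do not state whether reads were counted by strand.

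Of the 9 genes, 4 were called at an adjusted p under 0.05 and all 4 were lower in shMORC2, namely MORC2, ATF7IP, SETDB1 and MPHOSPH8. This is 44.4% of the set, where 39.5% of all 21005 genes tested were called in either direction and 19.6% were called lower. Leaving aside MORC2, 3 of 8 genes were called, or 37.5%. Every one of the 9 had at least 1006 counts in every library, and of the 6523 genes that averaged 1000 counts or more 51.1% were called and 26.7% were called lower. The share of the set that was called was thus close to that of other genes. The median log2 fold change was -0.19 over the 9 genes and -0.17 without MORC2, against -0.01 over all genes tested and -0.02 over those 6523 genes. No gene of the set was called higher, against 19.9% of all genes tested. The 3 libraries of each group did not overlap for the same 4 genes, all lower in shMORC2, where 25.1% of all genes tested were lower without overlap and 25.1% higher without overlap.

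**Figure D1:**
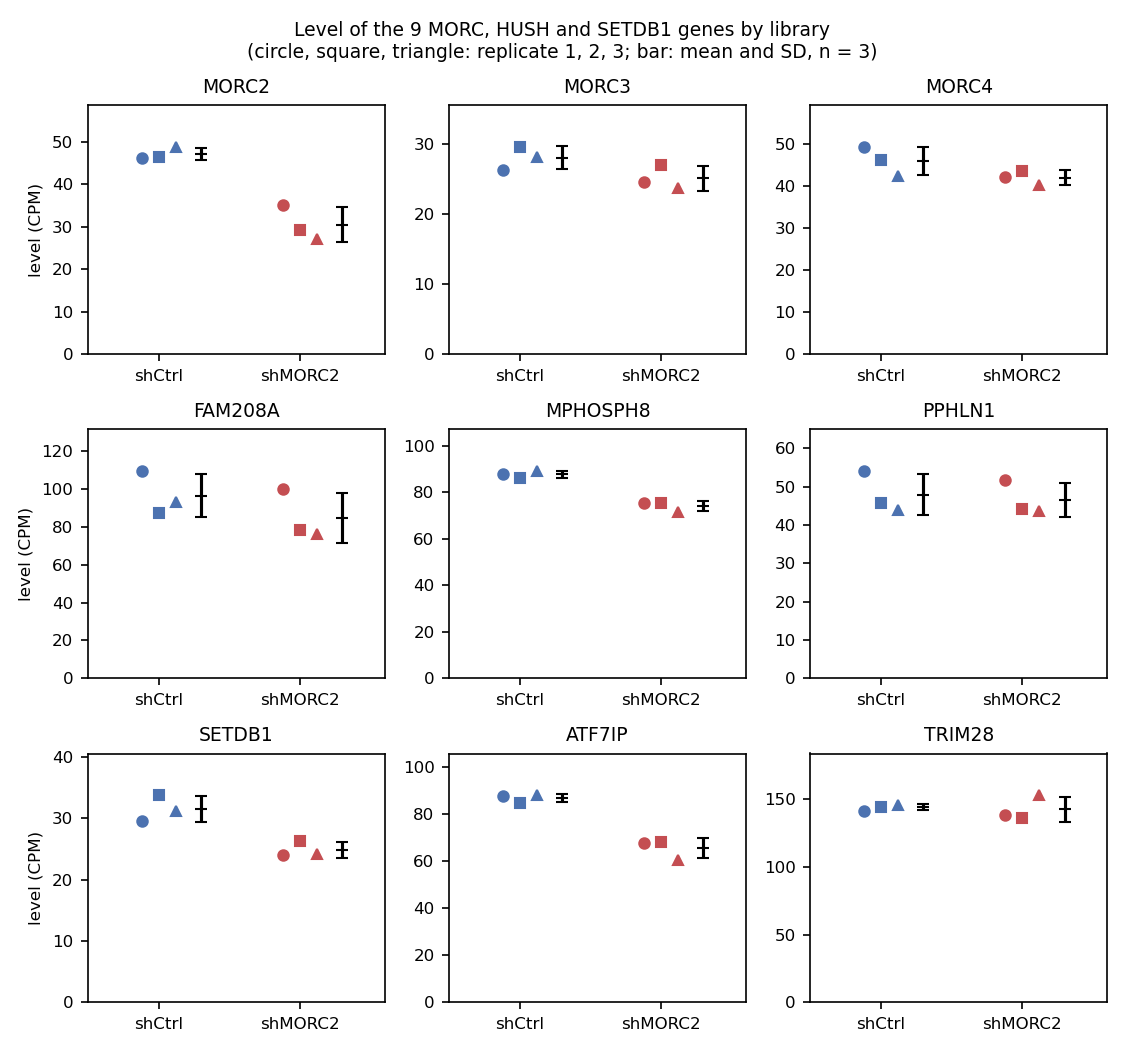
Levels in CPM (vertical axes, each from 0) of the 9 genes in the 3 shCtrl (blue) and 3 shMORC2 (red) libraries, with circles, squares and triangles for replicates 1, 2 and 3 and a bar for the mean and SD. The groups are apart for MORC2, MPHOSPH8, SETDB1 and ATF7IP, while FAM208A and PPHLN1 are highest in replicate 1 of both groups.

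Neither paralog was called higher in shMORC2. MORC3, a GHKL ATPase that forms nuclear bodies, was at 26.3, 29.5 and 28.2 CPM in shCtrl and at 24.5, 27.0 and 23.6 CPM in shMORC2. The groups overlapped, and a log2 fold change of -0.16 missed the threshold (SE 0.09, 95% interval -0.35 to 0.03, edgeR adjusted p 0.160). MORC4, an X-linked member of the family, was at 49.2, 46.0 and 42.4 CPM in shCtrl and at 42.1, 43.5 and 40.1 CPM in shMORC2. These groups overlapped too, with a log2 fold change of -0.13 (SE 0.08, 95% interval -0.30 to 0.05, edgeR adjusted p 0.228), and of -0.08 without shCtrl replicate 1. The upper ends of both intervals, 0.03 and 0.05, bound a rise on the log2 scale. MORC1, the germline member of the family, had 0 counts in all 6 libraries, which allows a level of up to 0.0729 CPM in the least deeply scaled library (3 counts, counting error only). Per kilobase, MORC2 made up 38.7% ± 1.69 of the summed RPKM of MORC2, MORC3 and MORC4 in shCtrl and 31.0% ± 2.78 in shMORC2 (SD, n = 3 each). The sum itself ran from 18.8 to 20.1 RPKM in shCtrl and from 14.5 to 16.7 RPKM in shMORC2.

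Of the HUSH subunits, MPHOSPH8 was called lower and FAM208A and PPHLN1 were not, with intervals that overlap. Differences between the subunits were not tested. MPHOSPH8, which binds methylated lysine 9 of histone H3 through its chromodomain, was at 87.7, 86.2 and 89.1 CPM in shCtrl and at 75.2, 75.3 and 71.7 CPM in shMORC2. The groups did not overlap, as for 50.2% of all genes tested in either direction, and the gene fell by 0.24 on the log2 scale (SE 0.07, 95% interval -0.39 to -0.09, edgeR adjusted p 0.0145). This call was lost without shCtrl replicate 3 (adjusted p 0.0688) and without shMORC2 replicate 3 (adjusted p 0.0686), with log2 fold changes of -0.23 and -0.22.

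FAM208A, whose protein TASOR assembles the complex, was at 109, 87.0 and 92.8 CPM in shCtrl and at 99.6, 78.3 and 76.0 CPM in shMORC2. Replicate 1 was the highest library of each group, the groups overlapped, and each shMORC2 library was lower than the shCtrl library of the same number. On the log2 scale the change of -0.19 missed the threshold (SE 0.11, 95% interval -0.43 to 0.05, edgeR adjusted p 0.199). With the replicate number as a block the log2 fold change was again -0.19 and was called (adjusted p 0.00941), in a fit that called 49.0% of all genes and 24.5% as lower. Without shMORC2 replicate 1 it was -0.32 and was called as well (adjusted p 0.0144). It shrank to -0.09 without shCtrl replicate 1 (adjusted p 0.548), to -0.11 without shMORC2 replicate 3 (adjusted p 0.539) and to -0.13 without shMORC2 replicate 2 (adjusted p 0.479). CCDC66 shares 287 exonic bases with FAM208A on the other strand.

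PPHLN1, whose protein periphilin binds RNA, was at 54.1, 45.8 and 44.1 CPM in shCtrl and at 51.7, 44.2 and 43.8 CPM in shMORC2. Replicate 1 was again the highest of each group and the groups overlapped. The log2 fold change was -0.04 (SE 0.10, 95% interval -0.25 to 0.17, edgeR adjusted p 0.751).

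SETDB1 and its cofactor were both lower. ATF7IP was at 87.8, 84.8 and 88.2 CPM in shCtrl and at 67.7, 68.4 and 60.6 CPM in shMORC2, with no overlap. It had a log2 fold change of -0.41 (SE 0.08, 95% interval -0.57 to -0.24, edgeR adjusted p 0.000964), and 75.4% of the control level remained. SETDB1 was at 29.5, 33.8 and 31.2 CPM in shCtrl and at 24.03, 26.3 and 24.2 CPM in shMORC2, again with no overlap. It fell by 0.34 on the log2 scale (SE 0.09, 95% interval -0.53 to -0.16, edgeR adjusted p 0.00625), to 78.9% of the control level. CERS2 shares 948 exonic bases with SETDB1 on the other strand, or 13.4% of its exonic length, and had 2487 to 2873 counts per library.

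TRIM28, the most abundant of the 9 genes, was at 141, 144 and 146 CPM in shCtrl and at 138, 136 and 153 CPM in shMORC2. The shMORC2 libraries lay both below and above the control range. The log2 fold change was -0.01 (SE 0.07, 95% interval -0.17 to 0.14, edgeR adjusted p 0.895), so that a difference of more than 0.17 in size lay outside the interval.

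The 4 genes that were called lower are shown with the 250 bases before their RefSeq transcription start (GRCh38.p14), printed 5′ to 3′ on the strand of the gene. The start used was the RefSeq start nearest to the 5′ end of the gene in the count table, at most 50 bases away for MPHOSPH8, SETDB1 and ATF7IP and 476 bases away for MORC2. Capitals mark matches on either strand to 4 motifs, which are the GC box GGGCGG, the CCAAT box CCAAT, the TATA box TATAAA and the ETS core CGGAAG. Letters of one motif may overlap another, as CGG is shared by GGGCGG and CGGAAG. The windows lie at chr22:30968775-30969024 (minus strand) for MORC2, chr13:19633409-19633658 for MPHOSPH8, chr1:150926013-150926262 for SETDB1 and chr12:14365432-14365681 for ATF7IP.
MORC2: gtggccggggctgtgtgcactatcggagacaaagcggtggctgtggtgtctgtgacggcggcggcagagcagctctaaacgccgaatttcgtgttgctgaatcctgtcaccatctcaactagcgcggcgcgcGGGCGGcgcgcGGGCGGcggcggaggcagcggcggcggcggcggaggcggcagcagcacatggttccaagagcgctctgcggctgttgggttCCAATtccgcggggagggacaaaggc
MPHOSPH8: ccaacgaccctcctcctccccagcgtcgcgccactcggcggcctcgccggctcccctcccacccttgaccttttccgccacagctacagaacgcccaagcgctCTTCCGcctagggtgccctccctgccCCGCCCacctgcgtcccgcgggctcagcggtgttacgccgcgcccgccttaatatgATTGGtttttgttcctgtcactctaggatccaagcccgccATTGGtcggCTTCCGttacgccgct
SETDB1: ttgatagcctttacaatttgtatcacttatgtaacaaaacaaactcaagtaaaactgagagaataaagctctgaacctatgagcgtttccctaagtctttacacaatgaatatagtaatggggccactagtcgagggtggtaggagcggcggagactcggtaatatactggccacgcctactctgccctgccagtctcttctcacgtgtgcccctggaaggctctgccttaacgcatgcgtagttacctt
ATF7IP: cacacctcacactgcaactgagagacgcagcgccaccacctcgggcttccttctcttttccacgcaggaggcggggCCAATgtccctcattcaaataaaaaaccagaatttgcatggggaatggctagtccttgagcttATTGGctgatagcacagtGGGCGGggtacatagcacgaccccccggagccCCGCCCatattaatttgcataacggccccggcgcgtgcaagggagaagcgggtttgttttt

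Windows were found for 8 of the 9 genes, all but TRIM28, and that of PPHLN1 starts 87720 bases from the 5′ end in the count table. The GC box was present in 6 of the 8, and in 42.6% of all 35116 windows of this length. The CCAAT box was also present in 6 of 8, against 32.0% of all windows. The ETS core was found in 3 windows (MORC3, MPHOSPH8 and PPHLN1), against 16.5% of all. No window of these genes held the TATA box, which 10.7% of all windows hold. A match is a description of these letters and not a binding site. The 4 genes above did not share a motif, since the SETDB1 window matched none of the 4 motifs and had a GC content of 46.0%, while those of MORC2, MPHOSPH8 and ATF7IP were at 68.0%, 66.4% and 55.6%.

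Ratios within a library do not depend on the scaling between libraries, and the ratio of MORC2 to each of the 8 other genes was compared between groups. The mean log2 ratio of counts was lower in shMORC2 for all 8. The difference was largest against TRIM28 (-0.62) and PPHLN1 (-0.59), followed by MORC4 (-0.51), MORC3 (-0.47), FAM208A (-0.44) and MPHOSPH8 (-0.39). It was smallest against SETDB1 (-0.29) and ATF7IP (-0.23). The 3 shMORC2 ratios lay below the 3 shCtrl ratios for every gene except SETDB1, for which shMORC2 replicate 1 lay among the controls (0.54, against 0.64, 0.46 and 0.65 in shCtrl). All 8 ratios share MORC2, which fell without overlap by itself (log2 fold change -0.63), so they largely restate that fall and are not 8 separate results. The share of all genes whose ratio to MORC2 separates the groups was not computed. With 3 libraries against 3, an exact two-sided permutation test cannot give a p below 0.1, which it gave for 7 genes (0.2 for SETDB1, and 0.114 and 0.2 after adjustment over the 8 ratios), so none passed the threshold.

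Levels between genes were compared as RPKM, read counts scaled for exon length and library total, from the authors' deposited table. In shCtrl, TRIM28 was highest at 35.7 ± 0.3598 RPKM, followed by MPHOSPH8 at 17.9 ± 0.369 and FAM208A at 9.85 ± 1.36 (SD, n = 3). MORC4 at 7.60 ± 0.743, MORC2 at 7.54 ± 0.0839 and ATF7IP at 6.61 ± 0.195 RPKM came next. SETDB1 at 4.45 ± 0.289, MORC3 at 4.38 ± 0.220 and PPHLN1 at 3.96 ± 0.535 RPKM were lowest. Neighbours whose 3 values overlapped were MORC4 and MORC2, SETDB1 and MORC3, and MORC3 and PPHLN1. In shMORC2 the 4 highest genes came in the same order, but ATF7IP (4.95 ± 0.370) and MORC2 (4.86 ± 0.753) followed with overlapping values, and SETDB1 (3.49 ± 0.139) came last, with values that overlapped those of PPHLN1 (3.82 ± 0.450), which in turn overlapped those of MORC3 (3.90 ± 0.246).

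**Figure D2:**
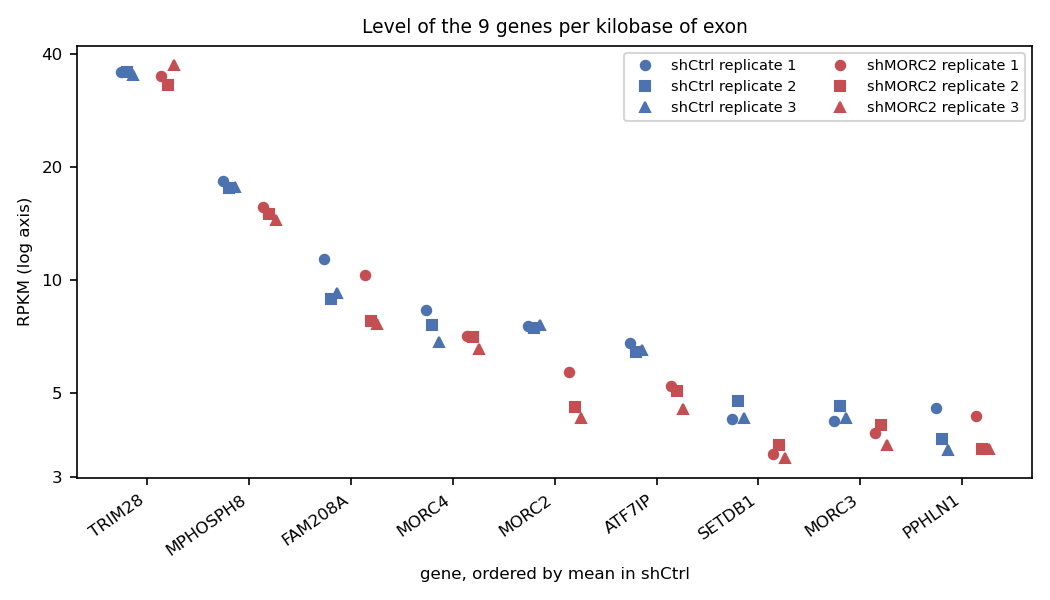
RPKM (vertical axis, log scale) of the 9 genes, ordered by their shCtrl mean, in each shCtrl (blue) and shMORC2 (red) library. TRIM28 lies near 35.7 RPKM in shCtrl and PPHLN1 near 3.96, and the MORC2 points lie above those of ATF7IP in shCtrl and overlap with them in shMORC2. This order holds for the deposited exon lengths.

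The place of PPHLN1 rested on the length used, and so did some other places. The deposited length joins all annotated exons, 12155 bases for PPHLN1, whereas its canonical transcript in GENCODE v44 has 1859 bases. With canonical lengths, an alternative chosen after seeing the data, PPHLN1 moved in shCtrl from the lowest place to the place after TRIM28. The reads of each gene were still those of all its annotated exons, so reads from outside the canonical transcript raise its level here. These levels were scaled between libraries as CPM is and not as RPKM, a scaling that by itself kept the RPKM order. PPHLN1 was at 25.8 on this scale, between TRIM28 (42.7) and MPHOSPH8 (20.7). MORC4 (12.1) then had a higher mean than FAM208A (11.8), and ATF7IP (9.85) a higher mean than MORC2 (8.32).

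Other genes of lysine 9 methylation were counted by lists. Of 32 genes, 31 were tested, all but MORC1, and 12 were called lower and 4 higher, or 51.6% of those tested. Of all genes tested, 39.5% were called, 19.6% lower and 19.9% higher. Of the 6523 genes that averaged 1000 counts or more, 51.1% were called, 26.7% lower and 24.4% higher, so that the share called was close to theirs. With the replicate block, 15 were called lower and 5 higher, where that fit called 49.0% of all genes, 24.5% lower and 24.4% higher. The calls gained were TRIM24, CBX5 and KDM3A, all lower, and KDM3B, higher. Among 10 tested paralogs and accessory factors, 6 were called lower and 1 higher, beside the 19.6% and 19.9% of all genes tested. The lower ones included SMCHD1, another GHKL ATPase (71.0 ± 4.08 to 50.0 ± 11.1 CPM, log2 fold change -0.51, edgeR adjusted p 0.00569), and TRIM33, a paralog of TRIM28 (60.4 ± 0.577 to 42.2 ± 6.76 CPM, log2 fold change -0.52, edgeR adjusted p 0.00135). FAM208B, the paralog of FAM208A, was lower as well (42.02 ± 4.49 to 33.3 ± 5.26 CPM, log2 fold change -0.34, edgeR adjusted p 0.0293), with overlapping groups. The remaining lower ones were ZNF638, ATRX and CHD3. ATF7IP2, the paralog of ATF7IP, was higher (5.19 ± 0.365 to 7.54 ± 0.998 CPM, log2 fold change 0.54, edgeR adjusted p 0.00588).

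Of 6 genes on the list of other methyltransferases and their partners, SETDB2 was called lower (18.2 ± 1.10 to 13.4 ± 1.82 CPM, log2 fold change -0.44, edgeR adjusted p 0.00665) and none was called higher. SUV39H1, SUV39H2, EHMT1 and EHMT2 had log2 fold changes of -0.03, -0.06, -0.04 and -0.06 and edgeR adjusted p of 0.591 to 0.803. Of the 4 readers, the HP1 genes CBX1 (200 ± 15.3 to 251 ± 3.58 CPM, log2 fold change 0.33, edgeR adjusted p 0.00388) and CBX3 (213 ± 30.7 to 277 ± 24.1 CPM, log2 fold change 0.38, edgeR adjusted p 0.00981) were higher and CDYL lower. The third HP1 gene, CBX5, had a log2 fold change of -0.20 that was not called (adjusted p 0.0834) without the block and was called with it (adjusted p 0.00722). Of 11 demethylase genes, 4 were called lower and 1 higher, where 19.6% and 19.9% of all genes tested were. With the block 5 were called lower and 2 higher, where that fit called 24.5% and 24.4% of all genes. With it, KDM3A (log2 fold change -0.20) went from an edgeR adjusted p of 0.0652 to 0.00817 and KDM3B (0.19) from 0.0562 to 0.0125. The lowest was KDM7A (49.2 ± 7.89 to 28.0 ± 4.88 CPM, log2 fold change -0.81, edgeR adjusted p 0.000342), whose change was larger in size than that of MORC2, and KDM4A was the higher one (log2 fold change 0.24, edgeR adjusted p 0.0243).

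**Figure D3:**
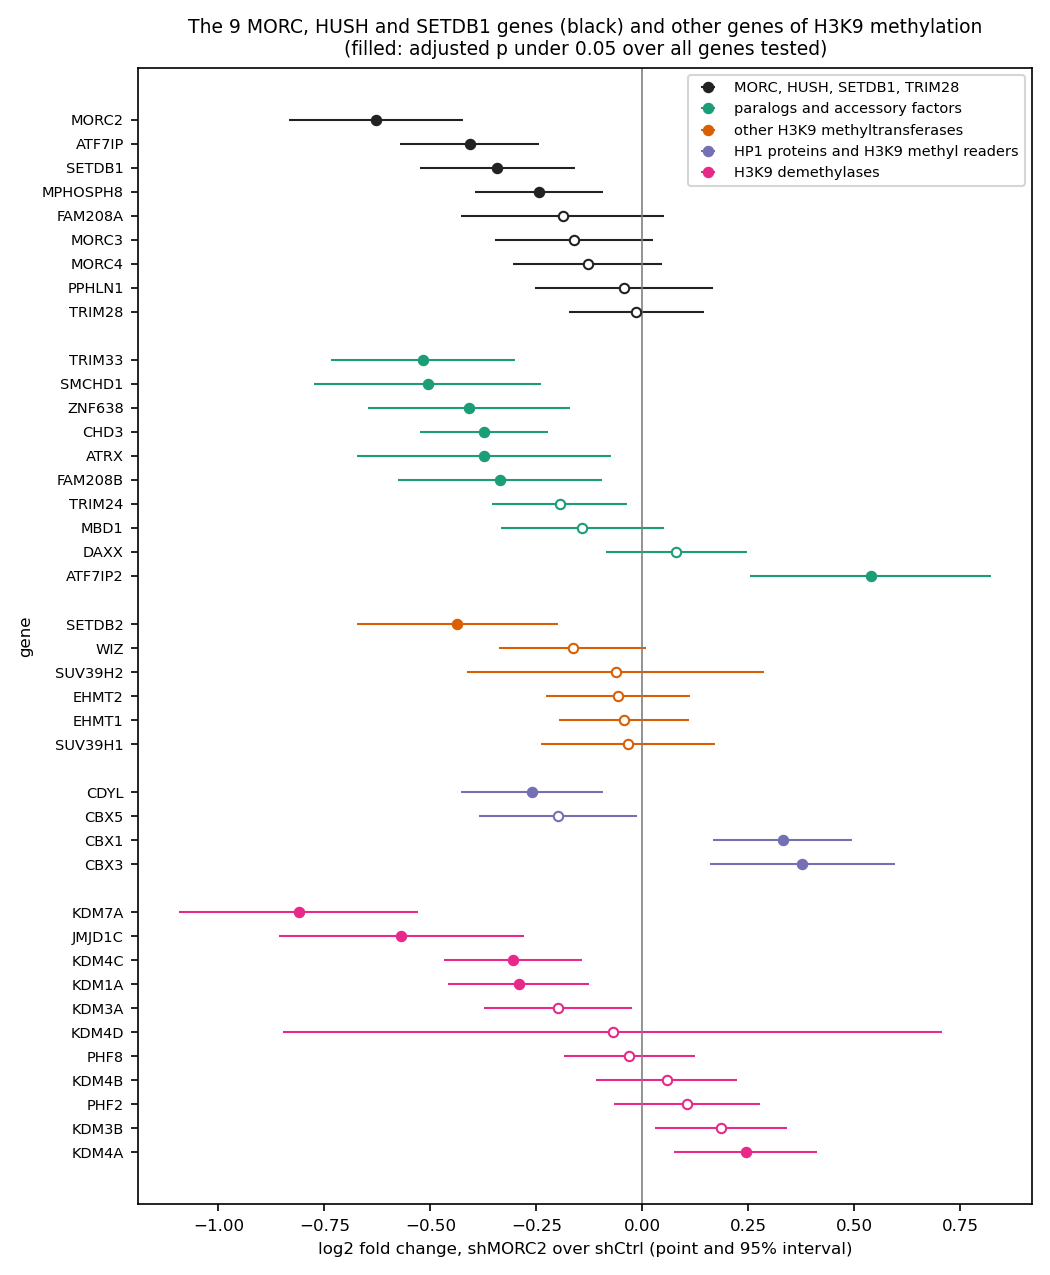
Log2 fold change of shMORC2 over shCtrl (horizontal axis) with its 95% interval for the 9 genes (black) and the 31 other tested genes of lysine 9 methylation (coloured by list), filled where the adjusted p was under 0.05. The 9 points run from -0.63 for MORC2 to -0.01 for TRIM28, while the lists hold genes on both sides of 0, from -0.81 for KDM7A to 0.54 for ATF7IP2.

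The genes whose profile over the 6 libraries lay nearest to that of MORC2 were CHIC1, LINC01588, ATP11B, ACVR2B and RP11-360F5.1, out of 14334 genes averaging 100 counts or more. Likeness was the root mean square difference of log2 CPM after subtracting the shCtrl mean, and was 0.03 for CHIC1 and 0.04 to 0.05 for the other 4. Among the 8 other genes of the set, ATF7IP came nearest, at 0.18 and rank 1011, followed by SETDB1 at 0.25 and rank 2276. TRIM28 was farthest, at 0.46 and rank 7043. The 8 genes came in the order of their log2 fold changes, which this measure largely restates, so it is no separate result.

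Splicing gave a readout that the choice of genes did not use. The authors' rMATS table lists 1449 events in 1181 genes, of which 3 events lie in 2 of the 9 genes, PPHLN1 and MORC4, and the other 7 genes have none listed. For scale, 21005 genes passed the filter on counts. Whether 2 of 9 differs from other genes of like depth was not tested. The table names its groups only 1 and 2, so that no knockdown direction can be given, and it holds only events that passed a threshold on the difference, so that the differences below are described and not tested. The skipped exon of PPHLN1 (chr12:42351885-42352049, GRCh38, plus strand) is exon 3 of the 10 of the canonical transcript. It has 165 bases, a multiple of the codon length, and is coding over its whole length in 10 GENCODE v44 transcripts. The skipped exon of MORC4 (chrX:106999677-106999749, GRCh38, minus strand) is exon 2 of 17. It has 73 bases, not a multiple of the codon length, and is coding in both transcripts that hold it. Both are printed 5′ to 3′ on the strand of the gene, since they are the sequences gained or lost.
PPHLN1: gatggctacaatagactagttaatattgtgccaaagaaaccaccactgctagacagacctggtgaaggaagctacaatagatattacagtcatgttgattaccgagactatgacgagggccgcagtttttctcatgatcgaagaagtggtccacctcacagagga
MORC4: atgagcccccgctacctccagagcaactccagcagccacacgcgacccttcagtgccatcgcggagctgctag

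The inclusion level of the PPHLN1 exon, computed from the listed reads and corrected for the length of each form, was 0.614, 0.717 and 0.589 in the group 1 libraries and 0.748, 0.787 and 0.815 in the group 2 libraries. All group 1 values were lower, on 182 to 232 reads per library. The second PPHLN1 event was a choice between its exons at chr12:42355161-42355222 and chr12:42374863-42375074, exons 4 and 5 of the canonical transcript. The share of the first of this pair was 0.402, 0.359 and 0.530 in group 1 and 0.345, 0.246 and 0.243 in group 2, on 71 to 80 reads per library. For the MORC4 exon, no skipping read was found in group 1, whose libraries held 10, 5 and 7 reads, and 2, 3 and 1 skipping reads were found in group 2 beside 19, 18 and 21 inclusion reads. The depth of 5 to 22 reads per library limits this event, as skipping in group 1 was not detected rather than shown to be absent.

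**Figure D4:**
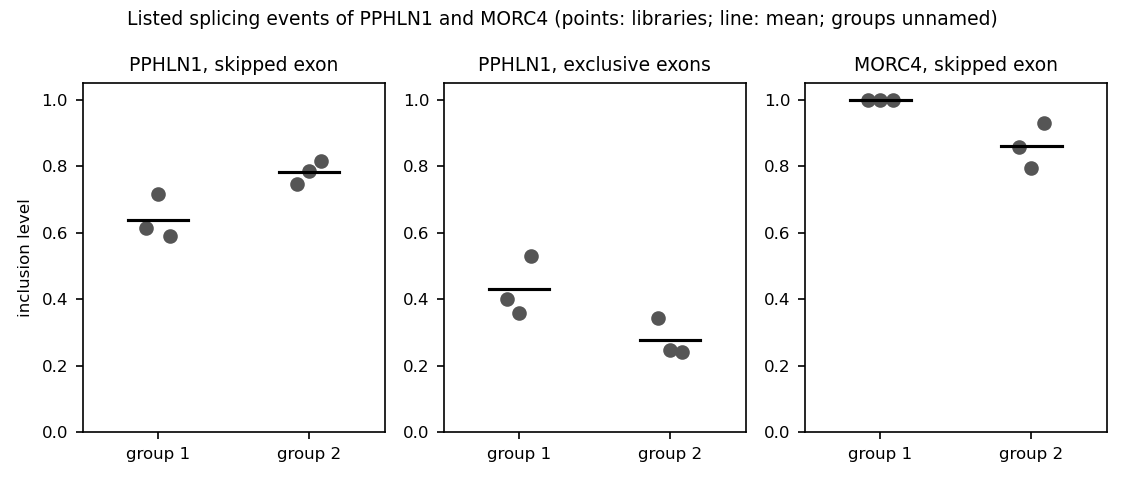
Inclusion level (vertical axis, share of the form with the exon, from 0 to 1) of the 3 listed events in each library of the unnamed groups 1 and 2, with a line at the mean. The PPHLN1 skipped exon runs from 0.589 to 0.717 in group 1 and from 0.748 to 0.815 in group 2, and the MORC4 exon is at 1 in all group 1 libraries.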

How the data were processed

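Stranded polyA libraries of 3 shCtrl and 3 shMORC2 samples were grouped by their titles. The authors deposited, per library, unnormalised counts for each gene and an RPKM table made from the same counts. The submitters' processing notes name Trimmomatic 0.36, STAR 2.5.3a, featureCounts of Subread 1.5.1, edgeR 3.12.1 and GRCh38. The study's methods call the assay UID-mRNA-seq. The annotation release, the strand setting and whether reads were collapsed by identifier before counting were not given in the sources used here. The deposited gene coordinates overlapped GENCODE v44 (GRCh38) for all 9 genes. From the authors' deposited splicing table only read numbers and form lengths were used (its p-values and differences, from the authors' own comparison, were not used), and its event coordinates were written from 1.

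Counts were tested with edgeR 4.0.16 (R 4.3.3): a filterByExpr filter, scaling by TMM, quasi-likelihood fits on group alone and Benjamini-Hochberg adjustment over 21005 genes, with an adjusted p under 0.05 called. The SE is the size of the log2 fold change divided by the square root of F. The ratio test used scipy 1.17.1. The scripts were tested on simulated data with 198 changed genes among 20661 tested. The edgeR fit recovered 77.7% of genes with a true log2 fold change of 1 in size and 54.8% of those with 0.6. Of its 144 calls, 14 were false. Smaller changes were not simulated. Alternatives were DESeq2 1.42.0, other scalings and filters, limma 3.58.1 on log2(RPKM + 1) and log2(RPKM + 0.1), the replicate number as a block, and leaving out each library. Libraries of the same number deviated together from their group means (correlations 0.386, 0.193 and 0.181 for numbers 1, 2 and 3). Libraries of unlike number had correlations of -0.302 to 0.154. Numbers 2 and 3 were little told apart, as shCtrl 3 with shMORC2 2 gave 0.154 and shCtrl 2 with shMORC2 3 gave 0.0413. The block takes the numbers as pairs, on the values alone, while the main fit uses group alone. The study describes the replicates as independent experiments. No source says that they were separate cultures or came from more than 1 line per group, so p-values measure the spread between these libraries. Libraries of the same group differed beyond counting error (chi-square per degree of freedom 6.35 to 21.5). The genes, lists and tests were chosen with earlier results of these data known. One gene of the lists was left out and is not reported here. The text names the 9 genes, genes of the lists, exon-sharing genes and the 5 nearest profiles to MORC2.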

Additional observations from a re-analysis of the deposited data

How the results depend on the processing

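MORC2, ATF7IP and SETDB1 kept their direction and call in all 15 alternatives, with log2 fold changes of -0.74 to -0.55, -0.44 to -0.35 and -0.39 to -0.28. MPHOSPH8 kept its call in 13 of 15, and MORC3, MORC4, PPHLN1 and TRIM28 were called in none. The replicate block added FAM208A (log2 fold change -0.19, adjusted p 0.00941), which made 5 of the 9 genes, and changed no other call among them. Leaving out single libraries gave 3 to 5 genes, and MORC2 ran from -0.74 to -0.55 there. Signs reversed for PPHLN1 without shCtrl replicate 1 (0.050) and without shMORC2 replicate 3 (0.0038), and for TRIM28 without shMORC2 replicate 1 (0.0098) and replicate 2 (0.018), none of them called (ranges over single libraries left out -0.12 to 0.0501 and -0.0642 to 0.0180). limma on log2(RPKM + 1) without a filter called 5454 genes in place of 8301, and 6 of the lists' genes lower and 1 higher in place of 12 and 4. The cause was not tested. The ratio of the highest to the lowest of the 9 genes per library averaged 9.74 with deposited lengths, 9.47 to 9.98 without 1 library, and 7.36 with canonical transcript lengths, which were chosen after seeing the data. Depth limits MORC1 and the MORC4 exon. As no source names more than 1 line per group, the knockdown and a difference between lines cannot be told apart.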
